A study of Mus musculus with 2 samples.

Results

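The mouse zinc finger genes described here are the 147 genes whose symbol is Zfp followed by digits and that lie on autosomes other than 2, 7, 13 and 17, out of 342 such genes in a count table of 19202 genes. They had to reach 20 counts summed over both libraries. The distal part of chromosome 3, which holds the targeted gene, was left out, and this removed no Zfp gene. Of 155 genes at these positions 8 were under 20 counts. Just under the limit were Zfp979, with 9 counts in the knockout and 6 in the control, and Zfp853 and Zfp469, with 6 and 4 each. Just inside it were Zfp593 (8 and 12), Zfp879 (9 and 19) and Zfp791 (16 and 21).

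The samples were telencephalic tissue of C57BL/6 mouse embryos at embryonic day 12 with a conditional knockout of H2AZ (H2AZcKO, here H2AZ cKO) or with the floxed allele undeleted (H2AZfl/fl, here floxed control). The protocol names cerebral cortex as what was dissected (Cre driver and number of embryos: not given in the sources used here). Sequencing in triplicate is mentioned, whereas the table holds 1 count column per genotype. No difference below has a replicate check, no p-value was computed from the counts, and fewer cells of a type cannot be told apart from less RNA per cell. Each ratio is H2AZ cKO over floxed control with its 95% Clopper-Pearson interval, which reflects counting error alone. Log2 ratios are those of CPM (read counts scaled to a common library size) plus 1, and they understate differences of genes with few counts.

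C2H2 zinc finger proteins bind DNA through a row of fingers, each folded around a zinc ion that a pair of cysteines and a pair of histidines hold. Many carry a KRAB domain, which recruits the co-repressor Trim28 and with it the H3K9 methyltransferase Setdb1 and heterochromatin protein 1, a route known for silencing of retroviral and other repeats. Others, without KRAB, regulate neural development, or act on RNA and ribosomes. Such genes are often found in clusters of related copies. The finger itself is visible in the coding sequence, shown here for 2 of the lowest and 2 of the highest members in the comparison, with the codons of the cysteines and histidines in capitals (GENCODE M21 transcripts, 5′ to 3′, residues counted in the longest coding sequence of the gene).
Zfp445, finger 7 of 12, residues 720 to 740: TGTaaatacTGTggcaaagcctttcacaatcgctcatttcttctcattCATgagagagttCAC
Zfp605, finger 7 of 12, residues 529 to 549: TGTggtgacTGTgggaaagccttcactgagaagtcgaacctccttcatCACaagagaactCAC
Zfp653, finger 3 of 5, residues 538 to 558: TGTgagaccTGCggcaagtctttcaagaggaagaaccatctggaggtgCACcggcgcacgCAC
Zfp277, finger 2 of 3, residues 431 to 452: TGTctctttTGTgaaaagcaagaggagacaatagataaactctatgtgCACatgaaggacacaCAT
Zfp445, Zfp605 and Zfp653 each keep the same spacing of the capitals over 63 bases, and the Zfp277 finger is a codon longer between its histidines.

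Promoter sequences are shown for the 3 lowest and 3 highest members with at least 100 counts, because these are the members farthest apart in the comparison. Each is the stretch of 250 bases before a start site in RefSeq (GRCm38.p6), with CpG dinucleotides in capitals.
Zfp445, chr9:122866007-122866256, minus strand: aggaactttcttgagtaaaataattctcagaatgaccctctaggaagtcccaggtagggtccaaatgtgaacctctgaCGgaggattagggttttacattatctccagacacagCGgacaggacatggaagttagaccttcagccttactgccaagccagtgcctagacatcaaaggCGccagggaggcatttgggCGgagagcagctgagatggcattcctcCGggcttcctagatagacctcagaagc
Zfp605, chr5:110109842-110110091, plus strand: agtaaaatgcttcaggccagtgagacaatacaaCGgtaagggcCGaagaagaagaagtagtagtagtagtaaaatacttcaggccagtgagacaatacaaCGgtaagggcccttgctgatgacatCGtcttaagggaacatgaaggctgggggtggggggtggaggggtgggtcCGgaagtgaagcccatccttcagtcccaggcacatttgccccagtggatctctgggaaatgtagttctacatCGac
Zfp882, chr8:71908356-71908605, plus strand: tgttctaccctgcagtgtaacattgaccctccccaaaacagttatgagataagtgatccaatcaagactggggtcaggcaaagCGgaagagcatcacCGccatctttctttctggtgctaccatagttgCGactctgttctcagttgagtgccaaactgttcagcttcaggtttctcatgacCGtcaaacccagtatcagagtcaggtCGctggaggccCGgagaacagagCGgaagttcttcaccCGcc
Zfp653, chr9:22071377-22071626, minus strand: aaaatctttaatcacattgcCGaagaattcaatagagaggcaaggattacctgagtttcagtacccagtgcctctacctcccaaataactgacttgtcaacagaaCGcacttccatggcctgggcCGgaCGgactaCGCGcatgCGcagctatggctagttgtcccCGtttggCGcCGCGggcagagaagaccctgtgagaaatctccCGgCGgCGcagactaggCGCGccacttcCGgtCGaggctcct
Zfp617, chr8:71922575-71922824, plus strand: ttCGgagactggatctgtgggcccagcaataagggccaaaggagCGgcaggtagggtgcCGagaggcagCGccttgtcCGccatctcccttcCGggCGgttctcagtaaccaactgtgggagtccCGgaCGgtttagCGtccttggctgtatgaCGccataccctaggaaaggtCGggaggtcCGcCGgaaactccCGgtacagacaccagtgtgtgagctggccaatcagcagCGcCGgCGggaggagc
Zfp277, chr12:40445791-40446040, minus strand: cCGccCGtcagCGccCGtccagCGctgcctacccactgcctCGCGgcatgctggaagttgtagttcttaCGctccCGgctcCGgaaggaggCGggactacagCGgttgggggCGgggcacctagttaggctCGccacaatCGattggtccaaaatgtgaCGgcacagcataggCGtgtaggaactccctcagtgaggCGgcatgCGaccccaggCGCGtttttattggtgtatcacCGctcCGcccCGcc
The start used for Zfp445 lies 3878 bases, and that for Zfp617 lies 14190 bases, from the start of the gene in the deposited table. The other 4 lie within 31 bases. The 3 lower members hold 5, 6 and 8 CpG in these windows and the 3 higher ones 18, 18 and 24. The median over 10521 tested genes with an entry was 16 (quartiles 10 and 23). These 6 genes were picked as extremes of the ratio, so they cannot show a pattern over the members. A link between promoter CpG and the ratio was not tested. The motif CCGGAAG of ETS factors, on either strand, was found in Zfp605, Zfp653, Zfp617 and Zfp277 and in 13.7% of those promoters. The GC box GGGCGG was found in Zfp445, Zfp617 and Zfp277 and in 61.2%, and TATAAA in none of the 6 and in 6.01%. RefSeq entries matched 111 members (75.5%) and 75.1% of all tested genes, so a comparison would leave members out. One was computed before this share was noticed and was then set aside, and its values are not given here.

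Library totals were 8839840 counts (H2AZ cKO) and 8891198 counts (floxed control). The targeted H2afz had 1664 and 2605 counts, 191 and 289 CPM, a ratio of 0.661 (0.621 to 0.703). Of 10 telencephalic markers 8 were above 0 and 6 had an interval above 1, with a summed ratio of 1.12 (1.10 to 1.14) and Nkx2-1 past 1.5-fold at 1.58. All 5 neural progenitor markers were above 0 with intervals above 1 (summed ratio 1.11, Hes5 at 1.62). Of 4 neuronal markers 2 were below 0 and 2 above, with a summed ratio of 1.01. Of the markers of hypothalamus and diencephalon all 9 tested were at least 1.5-fold lower in the H2AZ cKO (42.8 and 120 CPM summed over 10 genes, with Nkx2-4 and Rax at 0 counts there). Of 7 tested erythroid markers 6 were at least 1.5-fold higher (650 and 340 CPM summed over 8 genes), and of 8 tested markers of microglia and macrophages 3 were (47.3 and 33.6 CPM summed over 9 genes). Endothelial markers, none past 1.5-fold, summed to 101 and 106 CPM. Those of the meninges, with Dcn lower, summed to 13.5 and 16.7 CPM over 5 genes. Xist had 6384 and 200 counts and the Y-linked Eif2s3y 1 and 630, so the sex-linked makeup of the libraries and genotype cannot be told apart. The part of these differences in the values below was not tested.

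Zinc finger genes were more often lower than higher in the H2AZ cKO, by small amounts. Of the 147 members 96 (65.3%) had a log2 ratio below 0, against 48.8% of all 14004 genes with at least 20 counts. Their median log2 ratio was -0.08, with quartiles of -0.23 and 0.06, against a median of 0.0067 over all genes tested. On the log2(CPM + 1) scale, which counts of folds use throughout, at least 1.5-fold lower were 7 members (4.76%, against 2.45% of all genes) and at least 1.5-fold higher were none (against 1.54%). On this scale Zfp445 was the only member at least 2-fold lower (0.436% of all genes), and none was 2-fold higher (0.121%). Without the added 1 CPM, Zfp879 on 9 and 19 counts was also 2-fold lower (0.490). The counting interval lay wholly below 1 for 28 members (19.0%, against 11.3%) and wholly above 1 for 11 (7.48%, against 12.9%). Counts summed over the members were 65612 and 70565, a ratio of 0.962 (0.952 to 0.972).

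**Figure D1:**
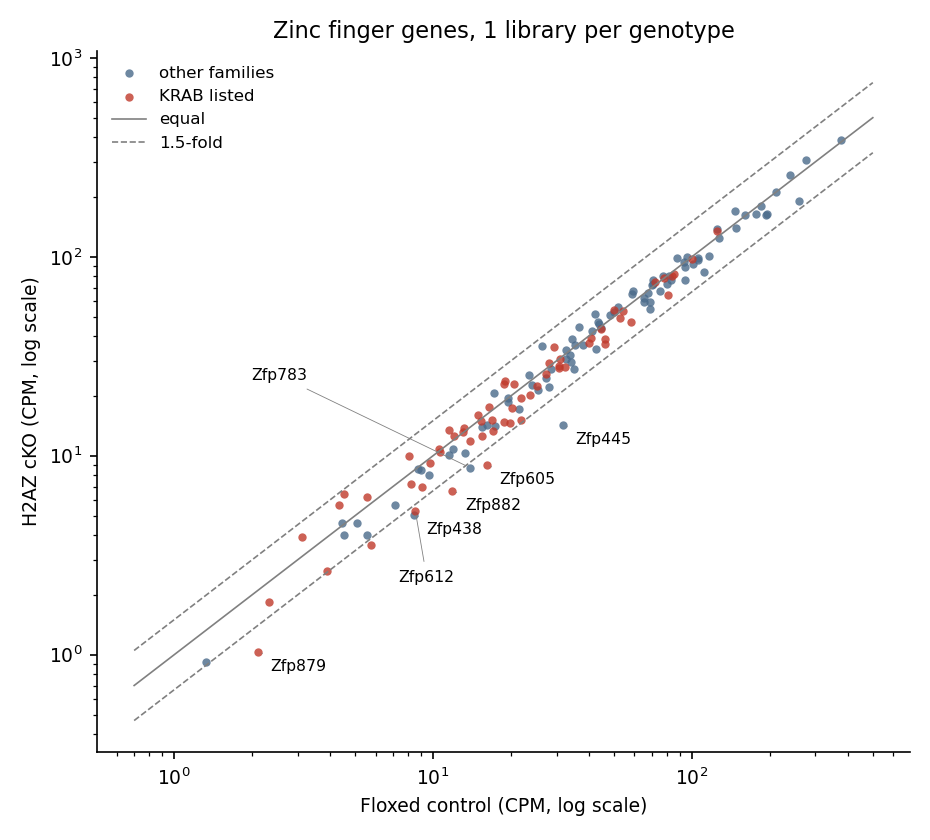
CPM of each of the 147 zinc finger genes in the floxed control (x axis) and the H2AZ cKO (y axis), both on log scales, 1 point per gene, with genes whose listed Pfam family is KRAB in red. The 7 named genes lie below the lower dashed line of 1.5-fold, as does Zfp951, and no gene lies above the upper one on the log2(CPM + 1) scale.

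The shift was wider among members with fewer counts. From 100 to under 500 summed counts 41 of 55 members were below 0, with a median log2 ratio of -0.15, against -0.01 over all 3887 genes in that range, and 6 of the 55 were at least 1.5-fold lower, against 2.39% of those genes. At 500 counts or more 47 of 80 were below 0, with a median of -0.04 against 0.02, and none was 1.5-fold lower, against 0.15%. Under 100 counts 8 of 12 were below 0 and 1 was at least 1.5-fold lower, where 8.57% of all genes were. A gene with so few counts can pass the fold by counting error alone.

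The lowest member was Zfp445, which the table lists with a SCAN domain and which is known for keeping DNA methylation at imprinted regions. It had 124 and 286 counts (H2AZ cKO first, as throughout), 14.2 and 31.7 CPM, a ratio of 0.449 (0.360 to 0.556) and a log2 ratio of -1.10. Its interval lay wholly below 1/1.5, which held for no other member on these ratios. The gene (ENSMUSG00000047036) lies at chr9:122851914-122862128 in the deposited positions, on the minus strand, and no annotated gene overlaps it. In the authors' deposited table it is the only member marked significant, with a log2 fold change of -1.20. The test is not named and compared 1 column with 1, so it holds no replicate check. Zfp462 has a smaller adjusted p there without the mark, so the mark does not follow the adjusted p alone. That table gives an adjusted p under 0.05 to 23 members that were lower and 2 that were higher, against 8.04% and 4.84% of all genes tested.

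The other 6 members past 1.5-fold were thinly counted. Zfp605, listed with a KRAB domain, had 78 and 146 counts, a ratio of 0.553 (0.414 to 0.733). Zfp882, also KRAB, had 58 and 107 counts (0.561, 0.4002 to 0.779). Zfp438 had 44 and 76 (0.599, 0.404 to 0.880). The libraries thus differed beyond counting error for each of the 3, while none of their intervals lay wholly past 1.5-fold. Zfp783 had 76 and 125 counts (0.629, 0.467 to 0.843) and Zfp612 46 and 77 (0.618, 0.419 to 0.902). Zfp879 had 9 and 19 counts, a ratio of 0.490, and its interval of 0.195 to 1.14 included 1. Zfp951, with 31 and 52 counts, had a ratio of 0.617 (0.382 to 0.981), lower than those of Zfp612 and Zfp783. It missed 1.5-fold only on log2(CPM + 1), and it is named after its value was seen. Zfp605 and Zfp612 overlap the annotated genes Gm15484 and Gm17720 on the opposite strand. On their own strand Zfp783 overlaps Zfp956 and Zfp882 overlaps Zfp617. Reads of these pairs may be mixed. Of all members 48 overlap a gene on the opposite strand and 34 one on their own.

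At higher counts the lower members had narrow intervals. Zfp462, a large protein with 33 matches to the finger pattern that is known from neurodevelopment and heterochromatin, had 1669 and 2328 counts, 192 and 258 CPM, a ratio of 0.742 (0.696 to 0.790). Zfp292, known from human neurodevelopmental disorder genetics through its ortholog, had 732 and 1002 counts (0.756, 0.686 to 0.832). On fewer counts, Zfp933 and Zfp26, both KRAB genes, stood at 0.693 (0.552 to 0.869) and 0.738 (0.583 to 0.932). With the trend described further on removed, the log2 ratios of Zfp462 and Zfp292 went from -0.43 and -0.40 to -0.32 and -0.30. Those of Zfp933 and Zfp26 went from -0.50 and -0.41 to -0.47 and -0.26. These 4 complete the 10 lowest members with at least 100 counts.

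On the higher side the differences were smaller. Zfp277, which binds the Cdkn2a locus together with Polycomb proteins, had 309 and 237 counts, 35.5 and 26.3 CPM, a ratio of 1.35 (1.14 to 1.60) and the largest log2 ratio among members with at least 100 counts (0.42). Zfp90 reached a like log2 ratio of 0.42 on 56 and 41 counts, and its interval of 0.928 to 2.17 included 1. It is named because it had the highest log2 ratio of all members, chosen after its value was seen. Zfp617 stood at 1.252 (1.02 to 1.54), Zfp653 at 1.23 (1.07 to 1.41), Zfp622, a factor of large ribosomal subunit maturation, at 1.22 (1.05 to 1.41), Zfp1 at 1.19 (1.01 to 1.41) and Zfp706, a repressor of Klf4 in embryonic stem cells, at 1.16 (1.07 to 1.245). For Zfp597, Zfp867, Zfp654 and Zfp963, with ratios between 1.16 and 1.23, the libraries did not differ beyond counting error.

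**Figure D2:**
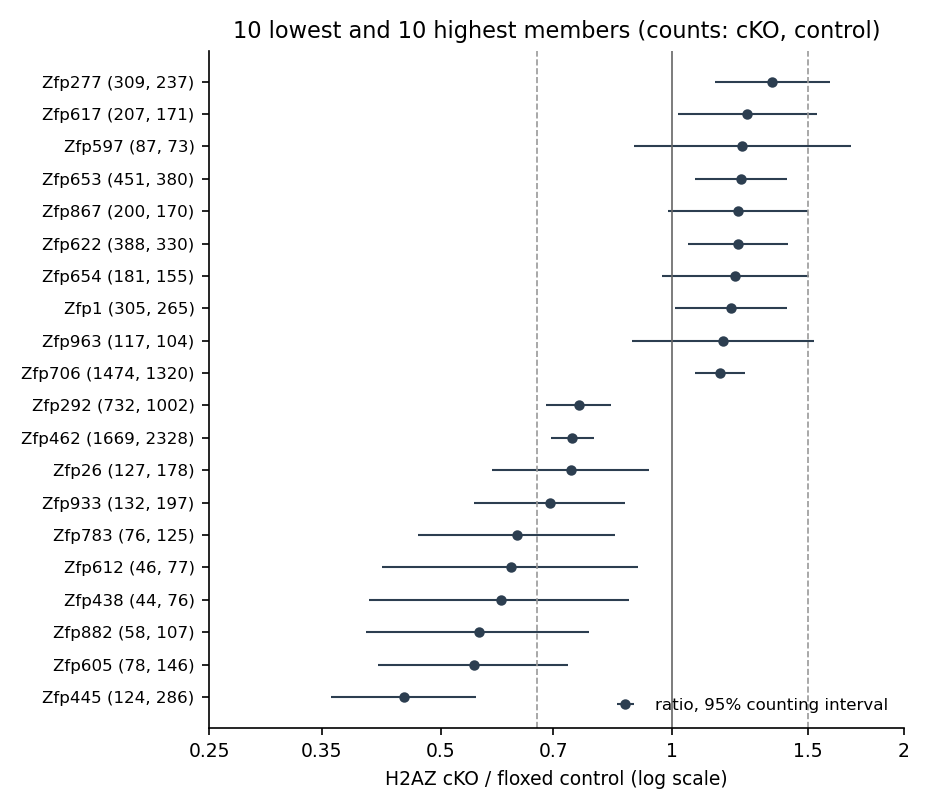
Ratio of H2AZ cKO to floxed control on a log axis for the 10 lowest and 10 highest zinc finger genes with at least 100 summed counts, with 95% counting intervals and the counts of both libraries in brackets. Zfp445 stands lowest at 0.449, and the upper side ends with Zfp277 at 1.35, inside the dashed line of 1.5-fold.

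Of 8 members listed for RNA handling and ribosomes 2 were below 0, against 65.3% of all members and 48.8% of all genes. With the trend described further on removed, 3 were. The median log2 ratio of the 8 was 0.05, and none passed 1.5-fold on log2(CPM + 1). The list holds Zfp706 and Zfp830, for which other roles are given here. Whether these 8 differ from the other members was not tested. Zfp207, a spindle and kinetochore protein that also acts in splicing and the most abundant member per transcript length at 244 CPM per kb, had 3382 and 3388 counts, a ratio of 1.03 (0.984 to 1.08). With that trend removed, its log2 ratio went from 0.05 to -0.07. Zfp326, which couples splicing to elongation, and Zfp330 had ratios of 1.03 (0.924 to 1.16) and 1.04 (0.883 to 1.23), and the RNA-binding Zfp638 was at 1.0 (0.930 to 1.08). The intervals of Zfp622 and Zfp706 lay above 1. Zfp830, a nuclear protein of the cell cycle, was lower, with 192 and 254 counts (0.782, 0.645 to 0.947). Zfp593, of ribosome assembly, had too few counts to place (0.690, 0.245 to 1.84).

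Of 19 developmental and chromatin regulators 13 were below 0 (68.4%, close to the 65.3% of all members). Their median log2 ratio was -0.13, and none passed 1.5-fold. With the trend described further on removed, 12 were below 0 and the median was -0.09. Beside Zfp462 and Zfp292, the related genes Zfp608 and Zfp609 were lower. Zfp608 had 666 and 849 counts, a ratio of 0.812 (0.732 to 0.899). Zfp609, a partner of the cohesin loader Nipbl, had 1436 and 1755 counts (0.847, 0.789 to 0.908). Zfp644, which works with the H3K9 methyltransferases Ehmt1 and Ehmt2, stood at 0.859 (0.763 to 0.967). The paralogs Zfp521 and Zfp423, partners of Ebf factors, both stood below 1, at 0.889 (0.794 to 0.994) and 0.917 (0.825 to 1.02), the second with an interval that included 1. Among the remaining regulators, the paralogs Zfp703 and Zfp503, the latter a striatal regulator, stood at 1.05 (0.952 to 1.15) and 1.05 (0.914 to 1.21). Zfp281 and Zfp148, relatives that bind GC-rich promoters, were at 1.03 (0.891 to 1.20) and 1.01 (0.916 to 1.11). Zfp410, an activator of Chd4, had 632 and 633 counts (1.03, 0.924 to 1.16). Intervals of Zfp384, Zfp451, Zfp687 and Zfp704, at ratios of 0.945, 0.913, 0.903 and 0.984, also included 1. So did those of Zfp365 at 0.883 and Zfp488 at 0.900, on under 50 counts in each library. The interval of Zfp422, at 1.07 (1.01 to 1.14), lay above 1.

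The 3 listed regulators of retroviral repeats and imprints all had a log2 ratio below 0, as did 65.3% of all members. Besides Zfp445 these were Zfp932, which represses endogenous retroviruses, with 129 and 170 counts (0.785, 0.620 to 0.993), and Zfp809, which binds the primer binding site of retroviral DNA, with 23 and 35 counts (0.680, 0.384 to 1.18). The count of Zfp809 is too low to tell its libraries apart. Zfp42 and Zfp385, also on the role lists, had no entry under these symbols in the deposited counts.

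**Figure D3:**
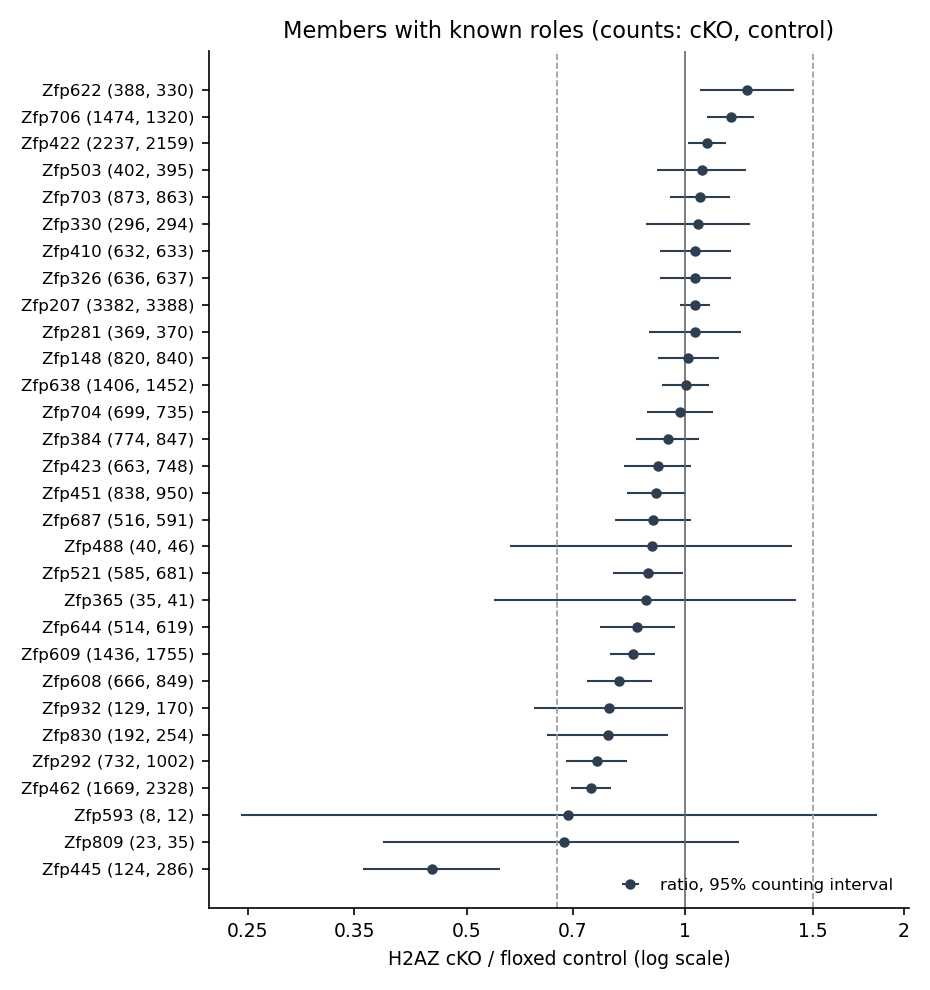
Ratio of H2AZ cKO to floxed control on a log axis for the 30 zinc finger genes listed by known role, with 95% counting intervals and the counts of both libraries in brackets. Zfp445 alone lies wholly below the dashed line of 1.5-fold, Zfp462 and Zfp292 lie below 1 with narrow intervals, and Zfp593, Zfp809, Zfp365 and Zfp488 have the widest.

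Genes that act with KRAB zinc finger proteins or in the same heterochromatin were split evenly. All 29 of a list of co-repressor and heterochromatin genes were tested, 15 of them below 0. The median log2 ratio was -0.01 and none passed 1.5-fold, and their counts summed to a ratio of 1.0 (0.988 to 1.01). Trim28, the co-repressor that KRAB domains bind, had 6662 and 6485 counts, 764 and 719 CPM, a ratio of 1.06 (1.03 to 1.10), whose log2 value of 0.09 turned to -0.0074 without the trend described further on. Its partner Setdb1 was lower, with 1007 and 1207 counts (0.863, 0.793 to 0.939), and so was the Setdb1 cofactor Atf7ip at 0.830 (0.772 to 0.893). The heterochromatin protein 1 genes stood on both sides, Cbx5 at 0.944 (0.899 to 0.991), Cbx1 at 1.09 (1.02 to 1.16) and Cbx3 at 1.17 (1.11 to 1.23). With the same trend removed, the log2 ratio of Cbx5 went from -0.08 to -0.03. That of Cbx1 went from 0.12 to 0.0002, and that of Cbx3 from 0.22 to 0.10. Further intervals away from 1 were those of Dnmt3a (0.796), Kdm4c (0.821), Atrx (0.886), Smarcad1 (0.910), Dnmt1 (0.937) and Chd3 (0.970), below it, and of Chd5 (1.23), Mphosph8 (1.18) and Hdac2 (1.16) above.

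Members with and without a listed KRAB domain had like medians. By the Pfam family that the deposited table lists first, 61 members had KRAB, 7 SCAN, 4 DUF3669, 52 a zinc finger family and 23 another family. Only that family was used, so members counted under another may also encode a KRAB domain. The median log2 ratio was -0.08 for the 61 KRAB members, of which 40 were below 0, and -0.07 for the other 86, of which 56 were. In the range from 100 to under 500 counts it was -0.11 for 32 KRAB members and -0.18 for 23 others. The order was the other way in the remaining ranges. At 500 counts or more it was -0.06 for 22 KRAB members and -0.02 for 58 others. Under 100 counts it was -0.23 for 7 and -0.15 for 5. No difference between the families was tested.

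Members with many fingers stood lower than those with few. Fingers were counted as non-overlapping matches to a pair of cysteines 2 to 4 residues apart, 12 residues, and a pair of histidines 3 to 5 residues apart, in 145 members with a coding sequence. The median was 9, and Zfp142 had the most, 36. Among 77 members with 0 to 9 fingers 42 were below 0 (54.5%), with a median log2 ratio of -0.03. Among 68 with 10 or more 52 were (76.5%, against 48.8% of all genes), with a median of -0.14. At least 1.5-fold lower were 5 of these 68 (7.35%) and 1 of the 77 (1.3%), against 2.45% of all genes. Zfp783, also past 1.5-fold, had no finger count. The 21 members with at least 15 fingers had a median of -0.23, and 19 of them were below 0 (90.5%). Of the 28 members with an interval below 1, 18 had 10 or more fingers, and of the 11 with an interval above 1 only Zfp617 had. Zfp142 itself had 239 and 315 counts (0.785, 0.661 to 0.932), and Zfp236, with 30 fingers, 474 and 622 (0.788, 0.698 to 0.890). Both were chosen after their values were seen.

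The group of 15 or more fingers and the splits that follow were added after the values had been seen. Level moved with the number of fingers. The median summed count was 912 with 0 to 9 fingers and 386.5 with 10 or more. At 500 counts or more the medians were 0.0083 for 54 members with 0 to 9 fingers and -0.12 for 26 with 10 or more, and from 100 to under 500 counts -0.06 for 17 and -0.15 for 36. Below 100 counts the order was the other way, -0.21 for 6 and 0.01 for 6. The same split in zinc finger genes that are no members gave -0.03 for 28 and -0.13 for 53 on chromosome 7, and 0.03 for 27 and -0.12 for 56 on chromosomes 2, 13 and 17. Across the 145 members Spearman's rho of the log2 ratio with the number of fingers was -0.29, a description across genes of 1 pair of libraries, which are not independent replicates.

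**Figure D4:**
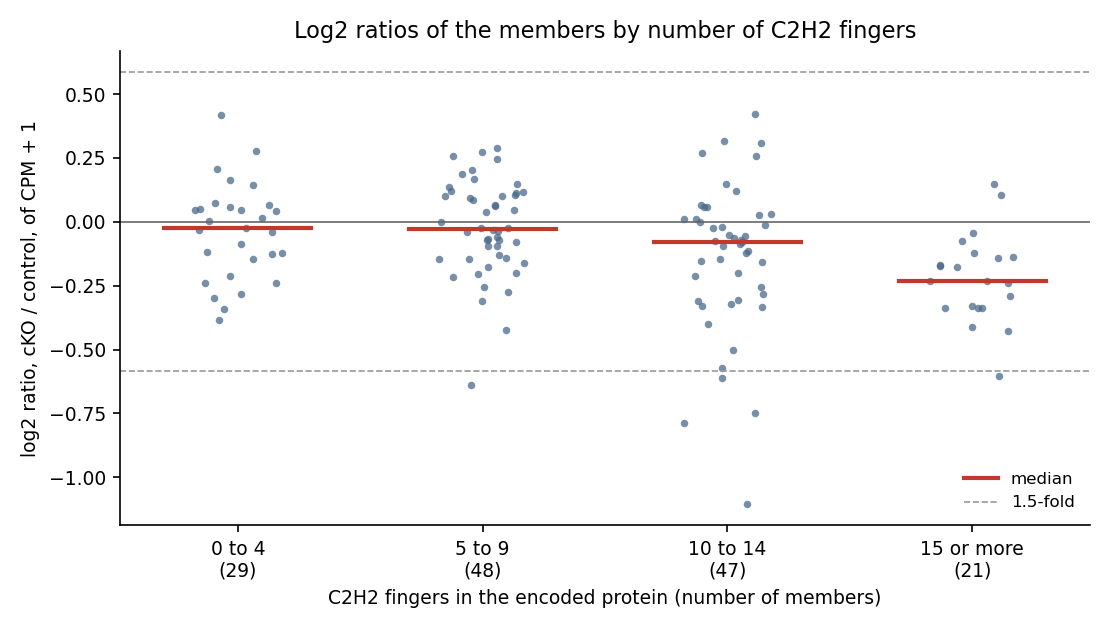
Log2 ratio of H2AZ cKO over floxed control, on CPM + 1, for 145 zinc finger genes grouped by the number of C2H2 fingers, 1 point per gene with the median as a red bar. The median goes from -0.02 at 0 to 4 fingers and -0.03 at 5 to 9 to -0.08 at 10 to 14 and -0.23 at 15 or more, and the groups overlap widely.

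The members lay on 15 autosomes. Chromosome 8 held the most, 23, of which 11 were below 0, with a median log2 ratio of 0.03, and chromosome 6 held 18, with 13 below 0 and a median of -0.03. The lowest medians among chromosomes with at least 10 members were -0.20 over 10 on chromosome 18, -0.18 over 15 on chromosome 5 and -0.15 over 13 on chromosome 4. The 7 members past 1.5-fold were spread over 6 chromosomes.

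**Figure D5:**
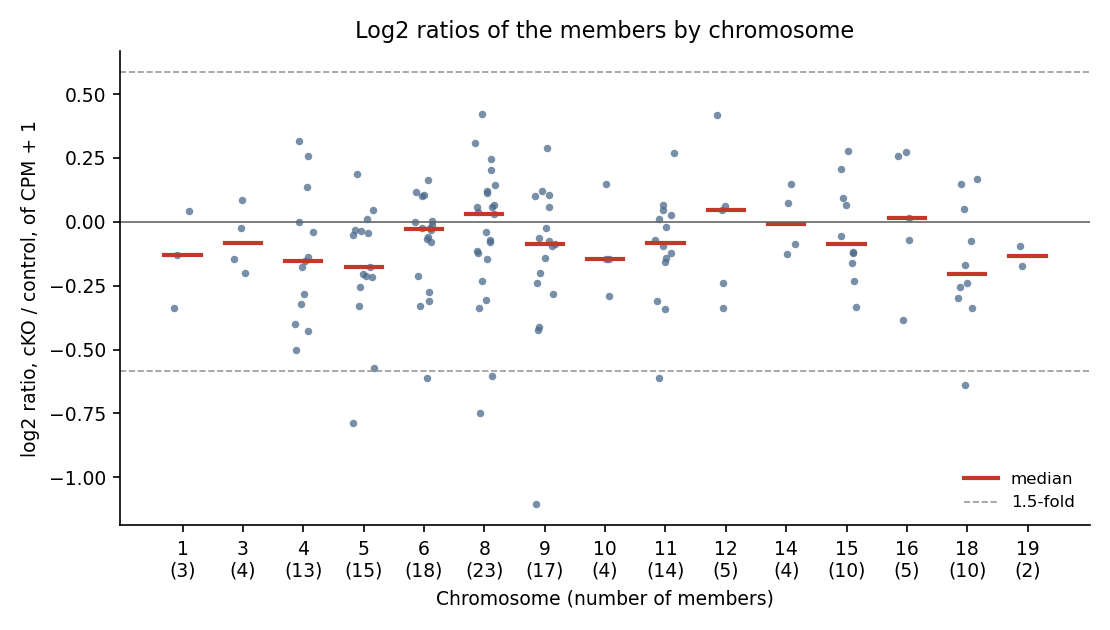
Log2 ratio of H2AZ cKO over floxed control, on CPM + 1, of the 147 zinc finger genes by chromosome, 1 point per gene, with the median as a red bar and the number of genes in brackets. Points scatter on both sides of 0 on all chromosomes but 19, which holds 2 genes, and no gene reaches the upper dashed line of 1.5-fold.

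Neighbouring members had log2 ratios on both sides of 0. There were 5 runs of at least 4 members whose starts lie within 500 kb of the next, with 29 members in all, a median log2 ratio of -0.06 and 19 below 0. The 118 other members had a median of -0.08. The run at chr8:71882019-71993408 held Zfp709, Zfp882, Zfp617 and Zfp961, all KRAB genes, and spanned log2 ratios from -0.75 for Zfp882 to 0.31 for Zfp617. These neighbours overlap on the same strand, with intervals of 0.4002 to 0.779 and 1.02 to 1.54 that do not meet, so which reads were counted to which gene bears on both. The largest run, 10 genes at chr6:47819266-48623227, had 8 members below 0, from -0.61 for Zfp783 to 0.16 for Zfp212. The runs on chromosome 9 went from -0.41 for Zfp26 to 0.11 for Zfp560 (5 genes, median -0.08) and from -0.42 for Zfp809 to 0.29 for Zfp653 (4 genes, median -0.0030). In the run of 6 at chr8:69226343-69791178, from Zfp866 at -0.31 to Zfp963 at 0.20, 3 genes were below 0.

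Zinc finger genes elsewhere had like values. The 82 on chromosome 7 had a median log2 ratio of -0.09 with 69.5% below 0, and the 83 on chromosomes 2, 13 and 17 one of -0.07 with 63.9% below 0, beside -0.08 and 65.3% for the members. At least 1.5-fold lower were 3, 5 and 7 genes. The difference between these groups cannot be tested with 1 library per genotype.

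Transcript length moved with the ratio over all genes. With all tested genes cut into 3 equal ranges of transcript length, the shortest (up to 2262 bases) had a median log2 ratio of 0.08 and the longest (over 3933 bases) one of -0.06. Members in the same ranges had medians of 0.0038 (24 genes), -0.07 (58 genes, where all genes had 0.01) and -0.10 (65 genes). With all tested genes cut into 3 equal ranges of GC content, the shift was absent in the highest. There 14 of 30 members were below 0 (46.7%, against 46.2% of all genes), with a median of 0.04 against 0.02. In the middle range 34 of 42 were (81.0%, against 51.9%), and in the lowest 48 of 75 (64.0%, against 48.5%), with medians of -0.14 and -0.09. With a joint trend on length, GC content and level removed, the members' median was -0.05 against 0.0040 over all genes, and 87 of 147 (59.2%) were below 0 against 48.9%. Then 4 members (2.72%) were at least 1.5-fold lower, Zfp445, Zfp605, Zfp882 and Zfp438, close to the 2.06% of all genes. The medians by finger number were then 0.01 for 0 to 9 and -0.12 for 10 or more.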

How the data were processed

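Per the labels' protocols, total RNA extracted with Trizol was made into Illumina TruSeq libraries. Bowtie2 2.2.3, TopHat2 2.0.12, HTSeq 0.6.0 and mm9 stand in the submitters' processing notes, without role or order. The deposited positions instead overlap the same gene in GENCODE M21 (GRCm38) for all 147 members and are identical for 102. The deposited counts are whole reads per Ensembl gene. Strand use and the treatment of multi-mapped reads: not given in the sources used here. Deposited CPM, fold (ratio), log2 fold change, p-value and adjusted p-value columns are the authors' own, per the file headers, from 1 column against 1. The column headed WT was taken as the floxed control. Symbols matched 19112 of 19202 identifiers.

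CPM were recomputed from the counts with TMM factors of 0.986 and 1.01 (edgeR 4.0.16, R 4.3.3). The remaining steps used Python 3.11.15 with pandas 2.3.3, scipy 1.17.1 and Biopython 1.88. Log2 ratios used a pseudocount of 1 CPM and a floor of 20 summed counts, for 14004 genes. Without molecular identifiers, reads can be copies of 1 molecule, so intervals cover counting error only. The removed trend was a joint quadratic fit over all tested genes. Intervals and folds were tried on simulated counts that held counting error alone. Such counts cannot show how far libraries of the same genotype differ.

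Named are the 10 lowest and 10 highest members with at least 100 counts, the 5 with the highest CPM (Zfp207, Zfp219, Zfp422, Zfp462 and Zfp362), members of role lists, and the co-repressor list. Zfp219 stood at 1.11 (1.05 to 1.17) and Zfp362 at 0.998 (0.936 to 1.06). Members and lists were chosen with earlier results of these data known. The planned protein sequences were replaced by promoters and finger-coding DNA. The alternatives were pseudocounts of 0.1 and 5 CPM, total-count scaling, DESeq2 1.42.0 size factors, other floors and folds, and the trend. Chosen after seeing the data were members without a listed KRAB domain or without opposite-strand overlap.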

Additional observations from a re-analysis of the deposited data

How the results depend on the processing

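Of the members 7 were at least 1.5-fold lower (4.76%, against 2.45% of all genes). That count was 8 with a pseudocount of 0.1 CPM (5.44%, against 4.24%) and under either other scaling. It was 2 with a pseudocount of 5 CPM (0.421% of all genes). With the trend on length, GC content and level removed it was 4 (2.72%, against 2.06% of all genes). It was 22 when the floxed control value had to be only 25% above that of the H2AZ cKO (8.79% of all genes). That is a smaller drop than 25% in the H2AZ cKO. It was 1 at 2-fold. Without the members listed with KRAB it was 3, and 56 of the 86 others were below 0 (an alternative chosen after seeing the data). With the H2AZ cKO value at least 25% above that of the floxed control, 2 members were higher (7.15% of all genes). Scaling by total count moved the median log2 ratio to -0.116, while that of all genes went to -0.0322, and the summed ratio to 0.935. DESeq2 size factors gave a summed ratio of 0.947. The median was below 0 in every setting tried, and no member was 1.5-fold higher under any pseudocount, scaling, floor or trend tried. Of the named genes with an interval away from 1, only Trim28 changed sign, at -0.0074 with the trend removed. Under each of the other pseudocounts and scalings all 76 named genes stayed within their counting intervals, and with the trend removed 67 did. No paired analysis was possible because there is 1 library per genotype.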
